A study of Drosophila melanogaster with 6 samples.

Results

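The genes described here encode the nuclear part of the mitochondrial oxidative phosphorylation system. They were chosen by RefSeq symbol: names that start with ND-, Sdh, UQCR-, COX plus a digit, or ATPsyn, on a nuclear chromosome. That gave 88 of the 16959 genes with a transcript in the deposited tables: 40 of complex I, 8 of complex II, 9 of complex III, 16 of complex IV and 15 of complex V. By the ending of the symbol, 63 are subunits, 24 are paralogues whose symbol ends in L or in L and a digit, and 1, Sdhaf3, is an assembly factor of complex II. Of the 88, 13 lie on the X chromosome and 75 on autosomes. The 3 mitochondrially encoded COX genes have no row in the tables.

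Oxidative phosphorylation takes place in the inner mitochondrial membrane. Complexes I and II pass electrons from NADH and succinate to ubiquinone, complex III passes them on to cytochrome c and complex IV to oxygen, and complex V uses the proton gradient that complexes I, III and IV build to make ATP. All of these except complex II combine subunits from the nuclear and the mitochondrial genome. Neurons draw much of their ATP from this pathway, and dividing neural stem cells of the fly larva use it as well. Drosophila has duplicate copies of many respiratory genes, and several of these copies are known for expression in the testis.

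The RNA came from central nervous systems of third-instar Drosophila melanogaster larvae at 84 h after egg laying, raised at 25 °C, with 15 nervous systems pooled per sample. The 3 knockdown samples are dSET2 RNAi/+; elavC155GAL4, in which a neuronal GAL4 driver expresses the RNAi against dSET2 (the gene Set2, a histone H3 lysine 36 methyltransferase). The 3 control samples are dSET2 RNAi/+; Canton S, which carry the same RNAi transgene and no driver. RNA was taken from the whole nervous system, so cells outside the driver's reach are measured too.

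The tables hold the authors' comparison per transcript and no value per sample. Their main measure of level is the base mean, the average over libraries of read counts divided by size factors. The lowest base means were whole-number sums of 4 steps, one step being the worth of 1 read in 1 library, although the labels list 6 samples. The libraries are called A, B, C and D, with size factors of 1.48, 1.11, 0.902 and 0.701. All transcripts with a single read in A, C or D had a positive fold change and all with a single read in B a negative one. The sign of a log2 fold change is therefore positive where A, C and D together were higher and negative where library B was. The tables do not say which side is the knockdown, so each direction below is given by library and not by genotype. With 1 library on one side, no difference has a replicate check there.

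The base means of the members went with the number of transcripts their genes have in the tables. Of the 13 subunit genes with 1 transcript, 11 had a base mean of at least 1000, and of the 50 with 2 or more transcripts 1 did, COX7A at 2198. The medians were 6029 and 10.2 normalized counts. The link was not particular to the members. Over all genes, 1864 of 9611 with 1 transcript reached 1000 and 118 of 7348 with 2 or more did, with medians of 4.38 and 1.67. ATPsynB, a stalk subunit of ATP synthase with 1 transcript, had 22737, and ATPsynC, which encodes the membrane rotor ring of the same enzyme and has 5 transcripts, had 11.3. In the Ensembl annotation (BDGP6.54), a median of 70.3% of the exonic bases of the subunit genes with several transcripts lay in all of their transcripts.

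Members without any base of their own were at 0. ND-19 has 4 transcripts and no base that belongs to 1 of them alone, as does ATPsynepsilonL with 3 transcripts. All 523 exonic bases of UQCR-14, all 647 of COX5BL and all 720 of ND-MNLL lie within exons of another annotated gene. ND-49, a core subunit of complex I, has 29 bases in 1 transcript of its 1593 and was also at 0. ND-51, the NADH-binding core subunit, has 37 of 1590 and held 2 reads in all. The number of such bases did not set the level by itself. ND-39, with 138 bases in 1 transcript and no overlapping gene, was at 0, as were COX7C with 223 and UQCR-6.4 with 237, which both overlap a gene on the opposite strand. UQCR-C1 with 72 such bases had a base mean of 73.7, and ND-PDSW with 87 had 49.1. Among subunits with 1 transcript, ND-B8 at 5.08 was low with 389 of 460 bases free of other genes. How reads shared between transcripts were counted is not stated, and its part in these levels was not tested. A base mean of 0 or near 0 therefore does not show that a gene with several transcripts was silent, and levels are compared below only among genes with 1 transcript.

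**Figure D1:**
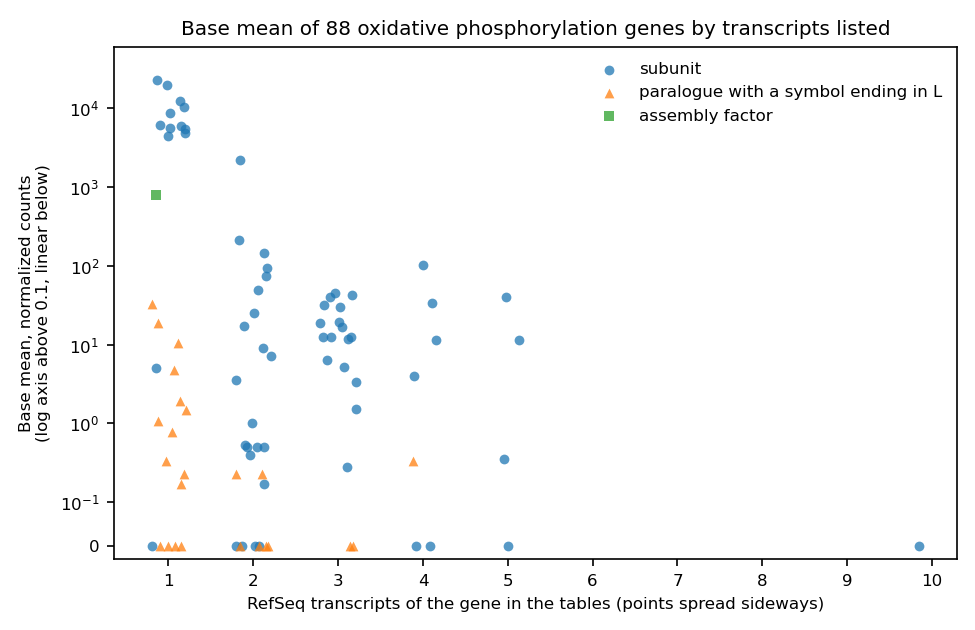
Base mean (vertical axis, normalized counts, logarithmic above 0.1) of each of the 88 genes against the number of its RefSeq transcripts in the tables; circles are subunits, triangles paralogues with a symbol ending in L and the square an assembly factor. Of the 12 genes at 1000 or more, 11 have 1 transcript, beside 1864 of 1982 over all genes.

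Per kilobase of exon, the genes with 1 transcript and at least 10 normalized counts differed widely in level, and those of complexes I and II overlapped. COX7B, a small subunit of cytochrome c oxidase, had the highest level, 29583 normalized counts per kb. ATPsynO, the connector of the ATP synthase stalk, and ATPsynB followed with 24886 and 24768 per kb. The 6 complex I genes lay together, at 9290 for ND-B15, 8852 for ND-30, 8613 for ND-B14.7, 8217 for ND-13B, 7362 for ND-23 and 7094 for ND-18. Of these, ND-30 and ND-23 are core subunits of the peripheral arm and the other 4 are accessory subunits. In complex II, SdhB, the iron-sulfur subunit, had 8544 per kb and SdhD, a membrane anchor, 6285. Sdhaf3, which helps to assemble SdhB, had 1673 per kb. Among the genes past that limit the paralogues were lowest, at 25 per kb for COX7CL, 16 for ATPsynbetaL and 9 for ND-51L1. ND-51L1 passes the limit by its reads in B, with 52.2 normalized counts there, against 14.9 in A, 3.33 in C and 4.28 in D. Its place in this order therefore rests on 1 library. The limit leaves out ND-B8, a subunit with 1 transcript and a base mean of 5.08, so paralogues and subunits are not fully compared. These values are averages over the 4 libraries with no spread, so neighbours in this order cannot be told apart or held apart by them.

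The 12 members with a base mean of at least 1000 all had a positive fold change of similar size. The log2 fold change in the authors' deposited edgeR table ran from 0.27 for ATPsynB to 0.57 for ND-B15, which is 1.2-fold to 1.49-fold higher on the side of A, C and D. Over all 1982 genes with such a base mean, 48.9% were positive, the median was -0.01 and the interquartile range ran from -0.17 to 0.18. Of those genes, 17.2% had a fold change as high as that of ATPsynB or higher. No member of the 12 passed a test: the unadjusted edgeR p-values ran from 0.13 to 0.438, and in the authors' deposited DESeq2 table the log2 fold changes of 0.25 to 0.51 had standard errors of 0.415 to 0.441. The selection of highly counted members was made after their values were seen, so the common direction is a description.

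The mean level of each side can be worked out from the base mean and the edgeR fold change. On 2691 genes whose reads per library are known (decoded), the level so implied for B had a median log2 difference of 0.006 from the decoded level, and 95% were within 0.049. For complex I, ND-30 had an implied 9149 normalized counts on the side of A, C and D, against 7114 in B. ND-B15, which had the largest fold change of the group, had 4827 on the side of A, C and D, against 3243 in B. ND-18 had 5823 on the side of A, C and D, against 4324 in B, and ND-23 had 6413 on that side, against 4878 in B. ND-B14.7 had 6442 on the side of A, C and D, against 5205 in B, and ND-13B had 5207, against 4001 in B. All 6 complex I genes were thus lower in B, by similar ratios.

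In complex II, SdhB had 11035 on the side of A, C and D, against 8557 in B, and SdhD had 5922, against 4709 in B. In complex IV, COX7B had 13027 on the side of A, C and D, against 10263 in B. COX7A, whose transcript with most reads stands for it, had 2330 on the side of A, C and D, against 1801 in B. The 2 complex V subunits had the smallest fold changes of the 12. ATPsynB had 23743 on the side of A, C and D, against 19720 in B, and ATPsynO had 20880, against 17196 in B. Summed over the 12 genes, the implied level was 114797 on the side of A, C and D, against 91012 in B, a ratio of 1.26. Reads per library could not be recovered at this height, so the spread of these genes among A, C and D is not known.

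**Figure D2:**
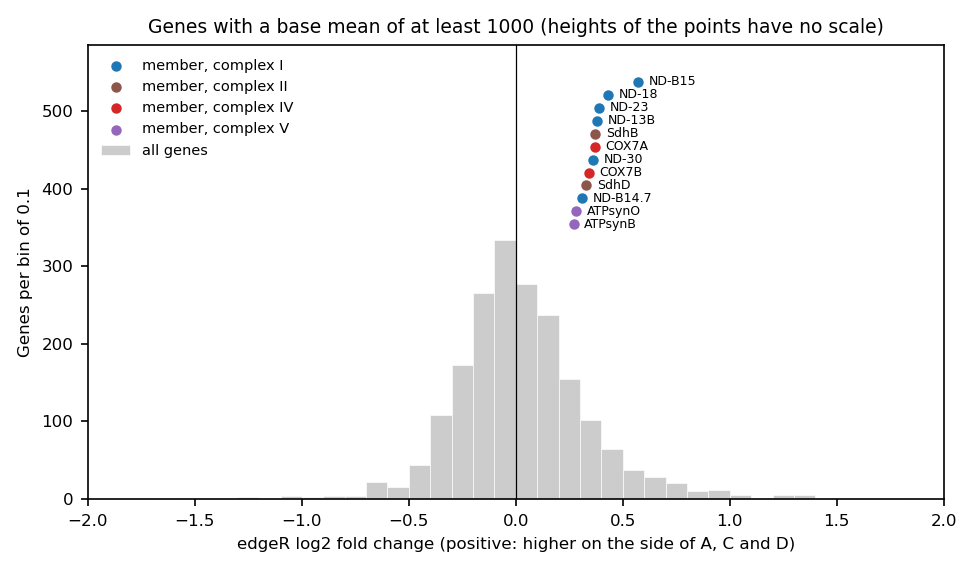
Grey bars count all 1982 genes whose base mean reached 1000 per bin of edgeR log2 fold change (horizontal axis; 30 genes below -2 and 2 above 2 are not drawn), and points mark the 12 members, coloured by complex, with heights that carry no scale. All 12 points lie between 0.27 and 0.57, right of the centre of the bars.

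Of the 88 members, 40 had a base mean of at least 10 (called measured below), 29 lay above 0 and below 10, and 19 were at 0. Among the 40, 30 had a positive and 10 a negative edgeR log2 fold change, with a median of 0.31 and 0.25 in the DESeq2 table. Over all 6596 genes with such a base mean, 51.6% were positive and the median was 0.01. Of the 28 members with base means from 10 to 1000, 18 were positive, with a median of 0.13, beside 52.7% and 0.03 for all genes of that range. Whether they differ from the 12 highly counted members was not tested. The number of transcripts moved with the fold change over all genes as well. The median was -0.05 for all genes with 1 transcript and 0.23 for those with several, while it was 0.36 for the 15 members with 1 transcript and 0.14 for the 25 with several. Members with 1 transcript thus lay above the median of their class and those with several below it, differences that were not tested. On the X chromosome, 8 of 8 measured members were positive, with a median of 0.14, beside 56.7% and 0.09 for all X-linked genes.

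By complex, 14 of 17 measured members of complex I were positive, 2 of 4 of complex II, 1 of 2 of complex III, 6 of 7 of complex IV and 7 of 10 of complex V. The medians of the log2 fold change were 0.31 for complex I, 0.1 for complex II, 0.52 for complex III, 0.34 for complex IV and 0.3 for complex V. Complexes II and III rest on 4 and 2 genes, and whether complexes differed was not tested. At a false discovery rate under 0.05 in the edgeR table, 1 of the 40 members was called, ND-51L1, beside 3.59% of all genes and 3.2% called in the negative direction; in the positive direction 0 of the 40 were called, beside 0.394%. That member was also the only one of the 40 with an unadjusted edgeR p-value under 0.05, beside 9.17% of all genes. By DESeq2, 0 of the 40 had an adjusted p-value under 0.05, beside 2.94% of all genes, and 1 had an unadjusted p-value under 0.05.

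**Figure D3:**
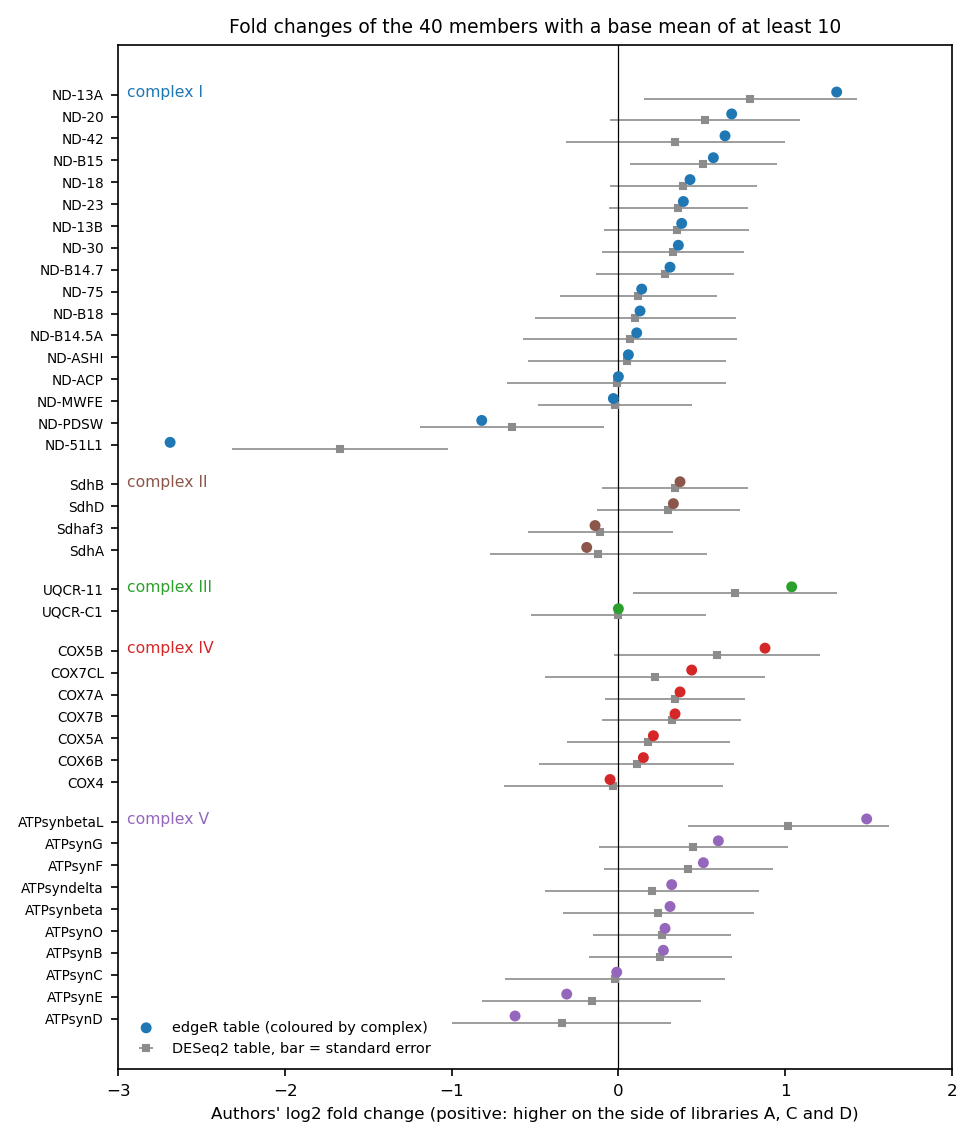
Authors' log2 fold change (horizontal axis) of the 40 members whose base mean reached 10, grouped by complex; coloured circles are the edgeR values and grey squares the DESeq2 values with their standard error. Most members lie right of 0 with error bars that cross it, and ND-51L1 stands apart at -2.69.

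ND-51L1 is a paralogue of ND-51, the flavoprotein that takes up electrons from NADH. It held 22 reads in library A, 3 in C and 3 in D, against 58 in B. In normalized counts that is 14.9 in A (95% Poisson interval 9.31 to 22.5), 3.33 in C (0.686 to 9.72) and 4.28 in D (0.882 to 12.5), and 52.2 in B (39.7 to 67.5). Library B was above all of the others by more than counting error, and A was also above C and D. The intervals of A, C and D overlapped, which does not show that these libraries were alike. Whether they differed was not tested. Such intervals cover counting error only. The authors' deposited edgeR table gives a log2 fold change of -2.69 (false discovery rate 0.0451), and the authors' deposited DESeq2 table -1.67 ± 0.65 (standard error, adjusted p = 0.2971). The call holds in 1 of the 2 tables. Its sister copy ND-51L2, which has 2 transcripts, was at 0.

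ATPsynbetaL, a paralogue of the catalytic beta subunit of ATP synthase, went the other way. It held 40 reads in A, 38 in C and 33 in D, against 15 in B, or normalized counts of 27.0, 42.1 and 47.0, against 13.5 in B. The interval of B, 7.56 to 22.3, overlapped that of A, 19.3 to 36.8, and lay below those of C and D, which began at 29.8 and 32.4. The log2 fold change of 1.49 did not pass the test (p = 0.0811, false discovery rate 1.0 in the authors' deposited edgeR table). For ATPsynbeta itself, measured by 1 of its 3 transcripts, the normalized counts were 41.9 in A, 36.6 in C and 47.0 in D, against 33.3 in B, a log2 fold change of 0.31. Library B was the lowest for both genes, with a wider gap for the paralogue, and this difference between them was not tested.

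Of the other paralogues, only COX7CL reached a base mean of 10, at 10.4, and the rest lay below that limit or at 0. COX7CL, a copy of the small oxidase subunit COX7C, held 20 reads in A, 5 in C and 10 in D, against 9 in B. COX7AL held 6, 8 and 3 reads, against 2 in B, and ND-B14.5AL held 5, 4 and 0, against 0 in B. SdhAL held 1, 4 and 0 reads, against 1 in B, and ATPsynCF6L 0, 3 and 0, against 1 in B. UQCR-6.4L held 3 reads in all, UQCR-14L and COX7AL2 held 2 each, and ND-24L, ND-20L, COX4L and COX6AL held 1 each in the transcript that stands for them. The remaining 10 of the 24 paralogues had no read. Of these, 6 have 2 or more transcripts, and for such genes a value of 0 does not show that the gene was silent. A count of 0 allows up to 3 reads, or 2.03 normalized counts in A, 3.33 in C and 4.28 in D, and 2.70 in B, so differences at such levels were not detectable at this depth. Of the 4 testis markers, dj was at 0, Mst98Ca at 2.27 and bb8 at 5.51, while betaTub85D had 157, with an implied 151 on the side of A, C and D, against 174 in B; their part in the paralogues' values was not tested.

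Reads per library were recovered for 24 members with base means from 10 to 100. Library B lay outside the range of A, C and D for 11 of them, 8 times below and 3 times above, beside 55.8% of 2703 genes decoded in the same range, 30.3% below and 25.5% above. The share of members with B outside the range was thus close to that of other genes of this height. Among A, C and D themselves the highest value was a median of 1.72 times the lowest, within a range of 1.21 to 5.82. Library A was the highest of the 3 for 8 members, C for 9 and D for 7. Summed over the 24 genes the normalized counts were 735 in A, 744 in C and 711 in D, against 648 in B. The complexes did not share this order. The 9 genes of complex I summed to 230.3 in A, 206 in C and 245 in D, against 260.2 in B. Library B was highest there only through the 52.2 of ND-51L1, which passes the base mean limit of 10 by its reads in B. Without that gene, B lay within the range of A, C and D. The 2 genes of complex III summed to 112 in A, 171 in C and 75.6 in D, against 96.4 in B, which lay within their range. Library B was lowest for the 4 genes of complex IV, with 91.1 in A, 82.0 in C and 84.1 in D, against 66.6 in B. It was also lowest for the 8 of complex V, with 286 in A, 259 in C and 299 in D, against 206 in B.

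In complex I, ND-13A, an accessory subunit, had the largest positive fold change among measured members. Its normalized counts were 25.7 in A, 15.5 in C and 27.1 in D, against 9.01 in B, with a log2 fold change of 1.31 (p = 0.153 in the authors' deposited edgeR table). ND-20, a core subunit that holds an iron-sulfur cluster, had 39.8, 46.6 and 62.7, against 30.6 in B. For both, B was lower than each of A, C and D. ND-PDSW, an accessory subunit, was the reverse, with 47.9 in A, 39.9 in C and 35.6 in D, against 73.0 in B, and a log2 fold change of -0.82 (p = 0.232 in the authors' deposited edgeR table). ND-MWFE, a small membrane subunit, was even, at an implied 211 on the side of A, C and D, against 215 in B. ND-75, the largest core subunit, had 150.2 on the side of A, C and D, against 136 in B. For ND-42, ND-ACP, ND-ASHI, ND-B14.5A and ND-B18, with log2 fold changes of 0.64, 0.00, 0.06, 0.11 and 0.13, library B lay within the range of A, C and D.

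The catalytic flavoprotein of complex II, SdhA, had 16.2 in A, 25.5 in C and 7.13 in D, against 18.9 in B, so that B lay within the spread. Sdhaf3 had an implied 767 on the side of A, C and D, against 843 in B, a log2 fold change of -0.14 (p = 0.771 in the authors' deposited edgeR table). In complex III, UQCR-11, a small subunit, held 61 reads in A, 69 in C and 14 in D, against 25 in B, with a log2 fold change of 1.04 (p = 0.192 in the authors' deposited edgeR table). In normalized counts, B lay between D and the other libraries. UQCR-C1, a core protein, had 70.9, 94.2 and 55.6, against 73.9 in B, which lay within the range of the others.

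In complex IV, COX5B, a nuclear subunit that binds zinc, had 34.4 in A, 22.2 in C and 28.5 in D, against 15.3 in B, with a log2 fold change of 0.88 (p = 0.296 in the authors' deposited edgeR table). COX4 had 10.8, 14.4 and 8.55, against 11.7 in B, and COX6B had 32.4, 39.9 and 32.8, against 31.5 in B. Library B was lowest for COX5B and, narrowly, for COX6B, and lay within the range for COX4. COX5A had an implied 107 on the side of A, C and D, against 92.4 in B. In complex V, ATPsynF, a membrane subunit, had 118 in A, 82.0 in C and 101 in D, against 70.3 in B, and ATPsynG had 51.3, 38.8 and 49.9, against 30.6 in B. Both were lowest in B, with log2 fold changes of 0.51 and 0.60. ATPsynD, a stalk subunit, had 14.9, 5.54 and 12.8, against 17.1 in B, the lowest fold change among measured members of the complex at -0.62 (p = 0.475 in the authors' deposited edgeR table). ATPsynE, ATPsynC and ATPsyndelta had log2 fold changes of -0.31, -0.01 and 0.32, with B inside the range of A, C and D.

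**Figure D4:**
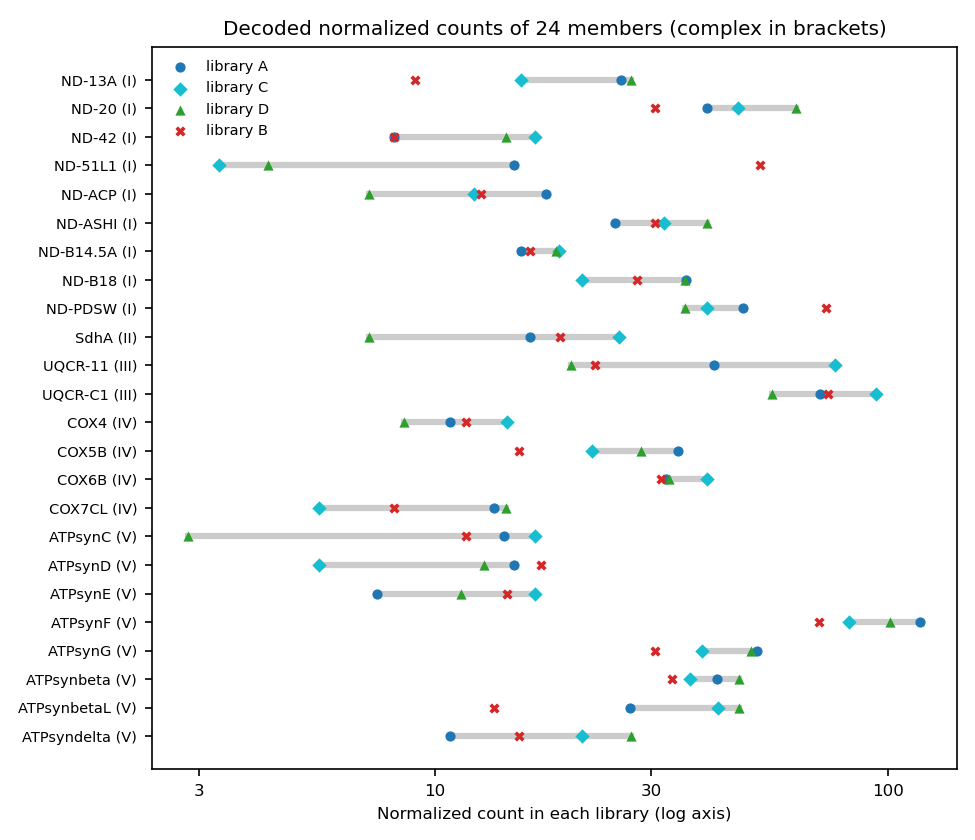
Normalized count per library (horizontal axis, logarithmic) of the 24 members with base means from 10 to 100; grey bars span A, C and D and red crosses mark B. B lies outside the grey bar for 11 members, furthest for ND-51L1.

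Of the 18 subunits above 0 and below a base mean of 10, all but ND-B8 have 2 or more transcripts, and 0 were called by edgeR or had an unadjusted edgeR p-value under 0.05. The DESeq2 table gives no adjusted p-value for 11 of the 18, which it could not call, and called 0 of the other 7. The share called over all genes of this height was not counted. With so few reads, these counts of 0 are no result about the subunits. ND-B17 held 6 reads in A, 4 in C and 4 in D, against 16 in B, and ND-B14.5B held 13, 4 and 8, against 13 in B. ND-B16.6 held 10, 3 and 1, against 2 in B. ATPsynCF6 held 11, 4 and 3, against 10 in B, ATPsyngamma 7, 6 and 2, against 7 in B, UQCR-Q 7, 5 and 2, against 3 in B, and SdhC 8, 3 and 2, against 3 in B. ND-MLRQ held 7 reads in all and ND-AGGG 4. UQCR-C2 held 3, and ND-24, ND-51, ND-B22 and COX8 held 2 each. ND-B12, ND-B17.2 and ND-SGDH held 1 each. ND-B8 held 6, 5 and 5 reads, against 4 in B. At these depths library B could not be told apart from the others for most of these genes. The other subunits at 0 were ND-15, ND-39, ND-B14, UQCR-6.4 and COX7C, each with 2 or more transcripts.

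Other genes of mitochondrial energy metabolism were listed for comparison, and none of them with a base mean of at least 10 was called by edgeR or DESeq2 or had an unadjusted edgeR p-value under 0.05. Of 9 respiratory genes outside the naming rule, 6 were measured, 4 of them positive, with a median log2 fold change of 0.27. They include blw, the alpha subunit of ATP synthase, with a base mean of 87836 and a log2 fold change of 0.26, close to ATPsynB and ATPsynO. Cyt-c1, which carries a haem of complex III, had 0.73 and ox, a small subunit of complex III with a base mean of 2135, had -0.05. The 5 measured assembly factors lay between -0.03 and 0.13, with Scox at -0.03 and Cox10 at 0.13, all below the 0.27 of ATPsynB. Of 6 measured genes of mitochondrial genome upkeep and nuclear control, 2 were positive, srl (the fly homologue of PGC-1) at 0.95 and mtSSB at 0.26, and the median was -0.12. That median was 0.12 where a base mean of 50 was asked for. Of the carriers and porin, 2 of 4 were measured, Mpcp2 at 0.43 and porin at 0.27.

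The TCA cycle list had 7 of 7 measured genes positive, with a median log2 fold change of 0.74. The 3 subunits of NAD-dependent isocitrate dehydrogenase had 0.97 for Idh3b, 0.96 for Idh3g and 0.74 for Idh3a, beside 0.75 for Scsalpha1, a subunit of succinyl-CoA synthetase, with unadjusted p-values of 0.106 for Idh3b, 0.16 for Idh3g and 0.108 for Idh3a in the authors' deposited edgeR table. These 4 genes have 2 or more transcripts, a class in which all genes had a median of 0.23. Mdh2, malate dehydrogenase with 1 transcript and a base mean of 16878, had 0.32, within the range of the highly counted members. Of 59 measured mitochondrial ribosomal protein genes, 53 were positive with a median of 0.22, and of the 54 with 1 transcript, 49 were, with a median of 0.21 beside -0.05 for all such genes. Their extremes were mRpL34 at -0.28 and mRpS30 at 0.90. Small positive fold changes were thus also seen in most of these genes.

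**Figure D5:**
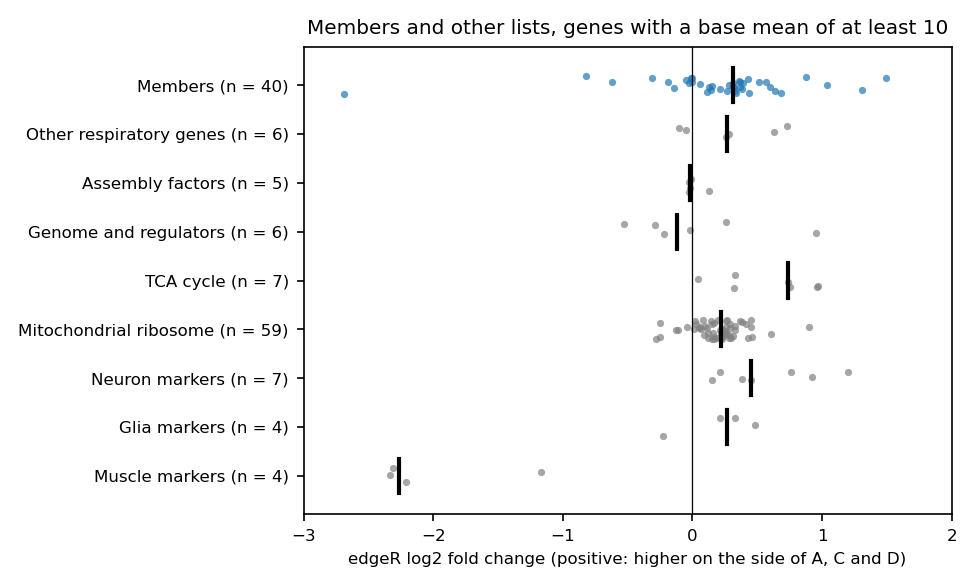
edgeR log2 fold change (horizontal axis) of every gene whose base mean reached 10 in the members and in the other lists, 1 point a gene, with a black line at each median. The medians are 0.31 for the members, 0.74 for the TCA cycle, 0.22 for the mitochondrial ribosome and -2.26 for muscle markers.

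Most markers of nervous system cells were positive like the members, and most of muscle, salivary gland and fat body were negative. All 7 neuron markers were positive, with a median log2 fold change of 0.45 and a summed implied level of 7931 on the side of A, C and D, against 4921 in B; 0 were called by edgeR or DESeq2 and 1, futsch, had an unadjusted edgeR p-value under 0.05. Of 4 measured glial markers 3 were positive, with a median of 0.27 and sums of 14416 on that side, against 11853 in B. Of 4 neuroblast markers 3 were positive, with sums of 6562 on that side, against 4863 in B. Of 7 muscle markers 4 were measured and all 4 were negative, with sums of 14431 on the side of A, C and D, against 69164 in B; 0 were called by edgeR or DESeq2, 1 had an unadjusted edgeR p-value under 0.05 (Mhc), and none of the 7 was at 0. Of the salivary glue genes, 4 of 5 measured were negative and 3 were called, with sums of 32.8 on the side of A, C and D, against 1086 in B. Of the fat body list Lsp1alpha and Lsp1gamma were measured and negative, with sums of 731 on that side, against 74259 in B, and Fbp1 was at 0. These sums depend on the fold change used. The log2 fold change of Lsp1alpha was -6.51 by edgeR and -1.99 by DESeq2, and that of Lsp1gamma -6.73 and -1.63. Of the fat body list edgeR called 0 and DESeq2 called 1, Lsp1alpha. The part of these markers in the members' fold changes was not tested. In such bulk samples, fewer cells of a type and less RNA per cell cannot be told apart.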

How the data were processed

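RNA sequencing of larval central nervous systems was used as 2 tables of the authors' comparison. The authors used HISAT2, featureCounts, DESeq2 and edgeR with build dm3, per the submitters' processing notes; versions are not given in the sources used here. Per the file headers, the deposited tables hold base means (a signal: normalized counts averaged over libraries), log2 fold changes with standard errors and log2 CPM, Wald and F statistics (each a score), and p-values, unadjusted and adjusted. Columns of per-sample values left out numbered 0. The edgeR test on counts that had been planned could not be run without values per sample, so the authors' deposited edgeR table is the main result.

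Of 34115 transcripts, 33994 matched a gene of RefSeq Release 6 by accession, and the transcript of highest base mean stands for each gene. Steps were found in base means up to 0.5 and refined by least squares. Base means up to 100 were then written as whole reads (tolerance 5e-09 up to a base mean of 10 and 1e-08 above), and where several sets were possible, the one within 0.3 of the authors' edgeR log2 fold change (0.1 added to each level) was kept. This gave reads for 2703 of 2707 genes between 10 and 100, 2668 of them with 1 set from the start. On simulated data, 150 of 150 base means up to 30 returned the true reads, and 146 of 150 between 30 and 100 did, with 1 wrong and 3 not decoded. Intervals are exact Poisson at the 95% level. Calls use an adjusted p-value under 0.05. Exon lengths and overlaps come from Ensembl BDGP6.54, not the authors' build, so no coordinates are given. Python 3.11.15, pandas 2.3.3 and scipy 1.17.1 were used.

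The members and lists were chosen with earlier results of these data known. Named are, per complex, the member of highest base mean, the 2 highest and 2 lowest fold changes with a base mean of at least 10, any called member, members with a base mean up to 30, and the paralogues; other members are named to account for all 88. The labels do not say whether samples came from separate cultures, so p-values measure only the spread between libraries. With 1 library on the side of B, no spread was measured on that side.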

Additional observations from a re-analysis of the deposited data

How the results depend on the processing

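Of 63 combinations of result and alternative, 50 kept their direction and their side of the threshold, or moved by at most 0.1 on the log2 scale or 1.5 times in a count. The median over the members, 0.31, ran from 0.25 in the DESeq2 table to 0.36 for members with 1 transcript or with a base mean of at least 1000, both chosen after the data were seen. The number of members called was 0 in the DESeq2 table and 0 at an adjusted p-value under 0.01. The median of the carriers and porin list, 0.35 over 2 genes, was 0.20 in the DESeq2 table. The median of the genome upkeep and control list, -0.12 over 6 genes, was 0.12 with a base mean of at least 50, since fewer genes were then measured. The cause of the others was not tested. Complex II had medians up to 0.35 and complex III from -0.00 to 0.87. The adjusted p-value of ND-51L1 was 0.2971 in the DESeq2 table. It was 0.0115 when readjusted over transcripts whose base mean reached 10, a limit the gene passes through library B, where it is high, so this value is no added support.

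No paired analysis was possible because no value of a single sample is given in either table. For that reason the replicate block, fits without a replicate, other normalizations and filters on counts were not run. Members above a base mean of 100 have no reads per library.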

Other observations

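The transcripts that do not stand for their gene were read as well. The 88 genes have 200 transcripts in the tables. Reads were present for 85, and 16 of those are not their gene's highest. None of the 16 was called in the authors' deposited edgeR table, and the smallest unadjusted p-value among them was 0.287, for the second transcript of ATPsynCF6. Most of the 16 had a base mean below 10, and the share called over all transcripts of this height was not counted. The absence of calls is therefore no result about these transcripts. The second transcript of ND-MWFE had a base mean of 96.6 and a log2 fold change of 0.62, while the first had 212 and -0.03. Whether the 2 differ was not tested. UQCR-11 was the member with most transcripts above 0, with base means of 2.56, 1.76 and 0.446 for those other than the highest.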
